A study of Mus musculus with 35 samples.

Results

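RNA-seq was compared between 3 stable clones that expressed MT194 and 3 stable clones labelled WT, 6 of the 35 libraries of a study of NELFB in immortalized mouse embryonic fibroblasts (MEFs). The 6 were chosen by their labels alone: MT194 clones 1 to 3 and WT clones 1 to 3. The other libraries were 9 clones with MT486, WT(N48) or Δ-C60 and 20 uncloned populations. All 6 clones came from Nelfb flox/- cells, which carry a null and a floxed Nelfb allele, received pLenti-WT-NELFB or pLenti-MT194, were treated with Ad-Cre to delete the floxed allele, and were then isolated as single colonies. By the study's methods the lentiviral construct was a flag-tagged mouse NELFB behind a CMV promoter, so its level was not under control of the Nelfb locus. Each library is labelled as 1 clone of 1 immortalized line, and the clones' time in culture is not given in the labels. The p-values measure the spread between such clones, among them a pair of MT486 clones whose libraries were nearly alike.

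NELFB is a subunit of the negative elongation factor (NELF), together with NELFA, NELFC (or NELFD, from the gene Nelfcd) and NELFE. NELF binds RNA polymerase II shortly after initiation and holds it in the promoter-proximal pause, from which the kinase P-TEFb releases it. MT194 replaces a valine, a lysine and an arginine with 3 alanines. The study made it in a series of alanine substitutions around lysines close to the other subunits. It found that MT194 no longer bound NELFA and NELFC, kept NELFE and was mostly in the cytoplasm. Comparing MT194 with WT thus asks what a NELFB without NELFA and NELFC does to the transcriptome of growing cells.

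The reference Nelfb coding sequence holds valine, lysine and arginine codons in a row at 1 place only, and it is printed here because it is the stretch that MT194 changes. It lies in exon 4 of the 13 exons of transcript Nelfb-201 (GENCODE, GRCm38, minus strand, chr2:25209980-25210048), and capitals mark the 3 codons, at chr2:25210010-25210018. They are codons 196 to 198 when counted from the CTG start of that transcript, and why this differs from the number in the name MT194 is not given in the sources used here. The codons used in the construct are not given in the sources used here.
Nelfb: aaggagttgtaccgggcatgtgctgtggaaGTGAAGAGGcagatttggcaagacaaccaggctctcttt

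Reads on genes numbered about 18413300, 23603200 and 18695600 in the clones labelled WT and 19552100, 20933000 and 19313700 in the MT194 clones, so depth was alike in both groups. Each file listed 24421 genes, of which 13223 were tested. Levels are CPM, reads scaled to a common library size, after TMM normalization. A difference is the log2 fold change of MT194 minus the clones labelled WT, with its SE, from edgeR's quasi-likelihood test fitted on all 15 clones, and adjusted p-values are Benjamini-Hochberg over the 13223 genes. A gene is called higher or lower at an adjusted p under 0.05 and a log2 fold change over 1 in size.

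Nelfb itself, on chromosome 2 from 25199712 to 25211489, went against the label in some of the clones labelled WT. Its level was 10.3, 109.4 and 15.5 CPM in clones 1, 2 and 3 labelled WT (200, 2637 and 306 reads) and 188.9, 215.6 and 146.6 CPM in the MT194 clones. The clones labelled WT 1 and 3 were thus far below clone 2 and below every other clone of the series, where the lowest level was 56.3 CPM, in a WT(N48) clone. EV-Cre populations, which carry an empty vector and a deleted Nelfb, had 7.97 and 5.46 CPM, and EV-GFP populations, which keep the floxed allele, 46.1 and 39.5 CPM. Reads of the construct and of the endogenous gene count alike here, and whether these 2 clones express WT NELFB cannot be told from the counts. They are therefore called the clones labelled WT throughout.

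MT194 and the clones labelled WT did not overlap in Nelfb, but the log2 fold change of 2.02 (SE 0.73, n = 3 and 3) was not called (adjusted p = 0.133, edgeR's quasi-likelihood test). Without clone 2 labelled WT it was 3.82 (adjusted p = 0.0332), and with clone 2 as the only comparator 0.74 (adjusted p = 0.653). Over the alternatives, adjusted p ran from 0.0218, with DESeq2, to 0.774, with WT(N48) clones as the comparator.

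The other NELF subunits were at like levels in the 2 groups. Nelfa, whose protein MT194 does not bind, had 61.6, 78.5 and 63.9 CPM in the clones labelled WT and 60.8, 49.3 and 77.8 CPM in MT194 (log2 fold change -0.12, SE 0.20). Nelfcd had 80.0, 87.2 and 67.5 CPM against 84.9, 55.7 and 86.2 CPM (-0.05, SE 0.21). Nelfe, which encodes the partner MT194 keeps, had 67.2, 87.7 and 67.6 CPM against 66.8, 67.2 and 76.7 CPM (-0.08, SE 0.17). The groups overlapped in all 3, and their adjusted p-values lay between 0.781 and 0.917 (edgeR), so no change was detected.

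**Figure D1:**
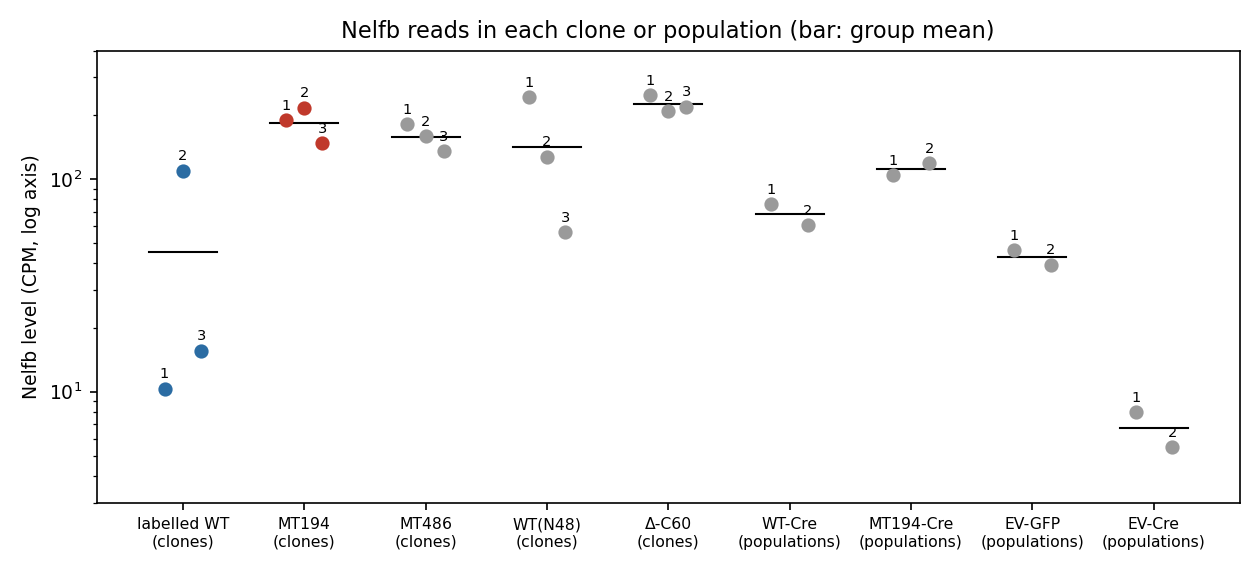
Nelfb level (CPM, log axis) in each clone or population, 3 clones or 2 populations a group, numbered by replicate, with a bar at the group mean. Clones 1 and 3 labelled WT (10.3 and 15.5 CPM) sit near the EV-Cre populations, and clone 2 labelled WT (109.4 CPM) lies below the 3 MT194 clones.

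All 6 clones expressed fibroblast markers. Of 24 fibroblast genes, 20 had at least 10 CPM in every clone, with Fn1 (fibronectin) at the highest CPM. The list summed to 20621, 16733 and 13995 CPM in the clones labelled WT and to 22814, 42071 and 23971 CPM in MT194, where clone 2 alone had 12658 CPM of Fn1 and the other 5 clones 2506 to 4630. No fibroblast gene was called (9 of 21 tested had an unadjusted p under 0.05, and DESeq2 called 4 higher), but all 21 lay above 0, 10 without overlap (beside 16.6% of all genes), with a median of 0.72 that ran from 0.51 to 1.04 as each clone was left out and was 0.35 against WT(N48). A list of 39 markers of other cell types summed to 318, 587 and 412 CPM in the clones labelled WT and 562, 353 and 816 CPM in MT194, led by Sox9 or Col2a1, cartilage genes, with 13 to 20 of the 39 at 0 reads. Some MT194 clones had markers that were at or near 0 in the clones labelled WT. Sox2, a stem and neural factor, had 4.94, 0.24 and 43.7 CPM in MT194 clones 1, 2 and 3 and at most 0.10 CPM in the clones labelled WT, Myod1, a muscle factor, had 13.1 CPM in MT194 clone 1, and Alb, albumin, 18.9 CPM in MT194 clone 2. Fewer cells of a type and less RNA per cell cannot be told apart in such bulk samples, and the part of these differences in the results was not tested.

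The spread between clones of 1 group was wide. Over the 13223 genes, which are not independent, log2 CPM correlated at r = 0.960 to 0.982 among the clones labelled WT, 0.937 to 0.979 among MT194 clones and 0.927 to 0.956 between them. Between 844 and 1424 genes were over 2-fold apart in pairs of clones labelled WT, 917 to 2216 in pairs of MT194 clones and 1657 to 3023 in pairs across the groups. Clones 1 and 3 were the most alike in both groups, and MT194 clone 2 stood farthest from the other MT194 clones. MT486 clones 1 and 2 were far more alike than any of these pairs, at r = 0.995 with 200 genes over 2-fold apart. Both entered the fit as separate clones, so the spread behind the SEs, adjusted p-values and calls may be understated. The MT486 medians below also count both. Whether they are separate clones was not tested, and no fit without 1 of them was run.

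Of 13223 genes, 117 were called higher in MT194 (0.885%) and 77 lower (0.582%), together 1.47%. The excess of higher calls depended on the setting. At a log2 fold change over 0.5 there were 169 higher and 215 lower, and without MT194 clone 3 there were 96 higher and 134 lower. DESeq2 on all 15 clones called 327 higher and 158 lower, and edgeR on the 6 clones alone 210 higher and 101 lower. The genes called lower included 13 ribosome assembly factors, 4 hosts of small nucleolar RNAs, 3 nuclear transport genes and 4 nucleotide or polyamine synthesis genes. Those called higher included 7 genes known as targets of FOXO factors, 4 lysosomal or autophagy genes, 3 matrix protease or inhibitor genes and 5 cilium genes. The median over all genes was 0.03 on the log2 scale, and 52.5% of genes lay above 0. Of these called genes, 193 did not overlap between the groups, the exception being Zfp105. This follows largely from the call, which rests on the same values. Over all genes, 33.6% did not overlap (16.6% higher and 16.9% lower in MT194).

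The calls were borderline as a set, with adjusted p between 0.0140 and 0.0497, and most were lost when any clone but MT194 clone 3 was left out. Without clone 1, 2 or 3 labelled WT there were 32, 3 and 0 calls, 25, 1 and 0 of them among those here, and without MT194 clone 1, 2 or 3 there were 0, 61 and 230 calls, 0, 45 and 126 of them among those here. The fits with 0 calls still had 2104 and 2124 genes at an unadjusted p under 0.05, against 2796 with all clones, and DESeq2 on all 15 clones called 485 genes, 190 of those called here among them. No gene stayed called in all 6 of these fits. With clone 2 labelled WT, the clone with a Nelfb level nearest to MT194, as the only comparator there was 1 call, not among those here. Against the WT(N48) clones, which carry pBabe-WT-ATG-NELFB, where 429 genes were called (3.24%; 226 higher, 1.71%, and 203 lower, 1.54%), 47 of those called here were called and 12 changed sign.

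The clones labelled WT also stood apart from the other WT construct. WT(N48) against the clones labelled WT gave as many calls (1.47%), 124 higher (0.938%) and 70 lower (0.529%). This comparison shares the clones labelled WT with the first, so the values are only set side by side. The genes called higher in MT194 had a median of 1.50 in MT194, 0.72 in WT(N48) and 0.57 in MT486, each minus the clones labelled WT, and those called lower -1.18, -0.35 and -0.30. Clone by clone, the genes called higher stood at 1.49, 1.52 and 1.39 in MT194 and the genes called lower at -1.31, -1.34 and -1.05.

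**Figure D2:**
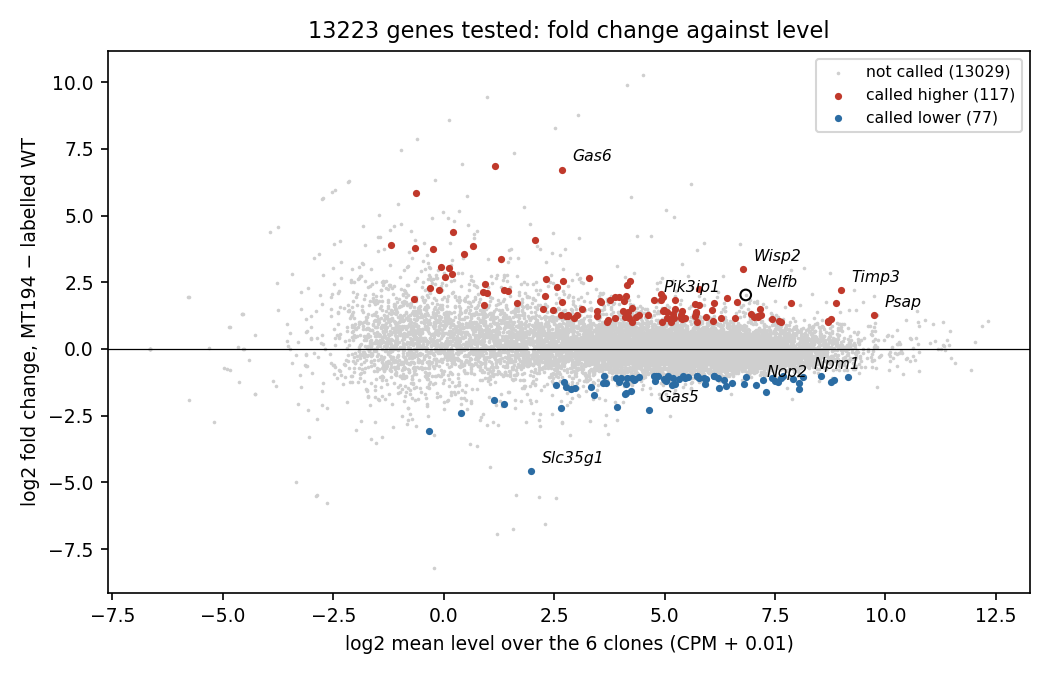
Log2 fold change of MT194 minus the clones labelled WT against log2 mean CPM over the 6 clones (plus 0.01) for the 13223 genes tested, 3 clones a group. The 117 genes called higher (red) and 77 called lower (blue) lie at all levels, and Nelfb (circle) has a log2 fold change of 2.02 but was not called.

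Hosts of small nucleolar RNAs were among the genes called lower. Gas5, a growth-arrest transcript whose introns carry such RNAs (chromosome 1, 161034422 to 161038539), had 49.3, 40.6 and 34.6 CPM in the clones labelled WT and 7.10, 9.68 and 8.81 CPM in MT194. Every MT194 clone was far below every clone labelled WT, with a log2 fold change of -2.28 (SE 0.30, adjusted p = 0.0140, edgeR). Snhg1 fell from 26.1, 28.5 and 24.7 CPM to 7.63, 5.88 and 11.6 CPM (log2 fold change -1.66, SE 0.30). Snhg5 had 23.8, 32.8 and 22.3 CPM against 6.56, 9.25 and 8.81 CPM, and Snhg3 15.5, 19.9 and 13.6 CPM against 4.21, 3.61 and 6.96 CPM. The groups did not overlap in any of the 4. The list of host genes, like those of ribosome biogenesis, nuclear transport, nucleotide synthesis, FOXO targets, lysosome and cilia below, was written after the calls had been seen, so its counts only describe them. Among the 14 host genes tested (Gas5 and the Snhg genes), these 4 were called lower, beside 0.582% of all genes, and none higher. Of the 14, 12 lay below 0, and the median was -0.96. Snhg18, the host gene of highest CPM, went the other way without overlap, with 30.5, 29.6 and 19.7 CPM against 43.5, 43.1 and 40.8 CPM, and was not called (0.67, SE 0.29, adjusted p = 0.198, edgeR), but it was at -0.67 against WT(N48). Clone by clone, that list stood at -0.84, -0.84 and -0.75 in MT194 clones 1, 2 and 3, as the median of log2 CPM minus the mean of the clones labelled WT. These 4 genes were also lower against WT(N48), at -1.66, -1.53, -1.48 and -1.59 for Gas5, Snhg1, Snhg5 and Snhg3.

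Factors that build ribosomes were mostly lower. Of 81 tested genes on a ribosome biogenesis list, 13 were called lower, beside 0.582% of all genes, and none higher. Of the 81, 77 lay below 0, and the median was -0.75. The groups did not overlap in 65, all of them lower in MT194, beside 16.9% of all genes. Nop2, an rRNA methyltransferase of the nucleolus (chromosome 6, 125131909 to 125144753), had 181, 191 and 209 CPM in the clones labelled WT and 66.4, 70.4 and 92.0 CPM in MT194, a log2 fold change of -1.34 (SE 0.23, adjusted p = 0.0195, edgeR). Heatr1, part of the small-subunit processome, had 104, 135 and 128 CPM against 38.3, 49.2 and 51.2 CPM (-1.41, SE 0.28). Rpp40, a subunit of RNase P and RNase MRP, had 12.2, 8.88 and 11.5 CPM against 2.79, 4.89 and 3.85 CPM (-1.49, SE 0.30). Npm1, nucleophosmin, an abundant nucleolar chaperone with many processed copies in the genome, had 395, 408 and 340 CPM against 131, 232 and 182 CPM (-1.07, SE 0.20). The gene of highest CPM on the list, Ncl (nucleolin), had 1822, 2093 and 1426 CPM against 635, 961 and 1163 CPM, with no overlap, and missed the call at -0.95 (adjusted p = 0.0537).

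By clone the ribosome biogenesis list stood at -0.91, -0.81 and -0.50 in MT194 and at -0.02, 0.08 and -0.06 in the clones labelled WT, so MT194 clone 3 was the mildest. Its median ran from -0.87 to -0.67 as each clone was left out, and it was -0.81 against clone 2 labelled WT alone and -0.50 against WT(N48). Ribosomal proteins themselves moved less: of 74 tested, 56 lay below 0 with a median of -0.28, and 2 were called lower, Rpl27 (17.6, 16.5 and 15.1 CPM against 6.75, 7.78 and 9.91) and Rps27a (8.76, 11.1 and 8.07 CPM against 3.47, 3.84 and 4.40). Both have near-identical copies elsewhere in the genome, so their counts are uncertain. Rpl8, the member of highest CPM, had 1832, 2067 and 1713 CPM against 1259, 1492 and 1478 CPM, without overlap, and was not called (-0.41, adjusted p = 0.244, edgeR).

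Nuclear transport genes were mostly lower too, again least in MT194 clone 3 (-0.59, -0.64 and -0.39 by clone). Of 37 nucleoporins and importins tested, 36 lay below 0 (median -0.50) and 3 were called lower, beside 0.582% of all genes. Nup205, an inner-ring scaffold nucleoporin, had 269, 371 and 353 CPM against 150, 140 and 160 CPM in MT194 (-1.14, SE 0.15, adjusted p = 0.0140, edgeR). Ipo5, an importin that carries ribosomal proteins and histones, had 652, 532 and 715 CPM against 296, 248 and 295 CPM (-1.18, SE 0.21). Rcc1, the exchange factor that loads Ran with GTP in the nucleus, had 134, 131 and 129 CPM against 38.2, 42.9 and 80.0 CPM (-1.29, SE 0.27). Its span (chromosome 4, 132331919 to 132353605) overlaps that of Snhg3 above (132348014 to 132353686) on the same strand, so both calls share a locus. Kpnb1, importin beta and the gene of highest CPM on the list, had 1358, 1411 and 1333 CPM against 699, 870 and 786 CPM, with an adjusted p of 0.0253 (edgeR), but its log2 fold change of -0.80 was under the threshold. With WT(N48) as the comparator none of these 3 was called. Nup205 was at -0.95 (adjusted p = 0.00724, edgeR), under the threshold in size. Ipo5 was at -0.50 and Rcc1 at -0.28 (adjusted p = 0.157 and 0.544, edgeR).

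All 26 nucleotide and polyamine synthesis genes tested lay below 0, with a median of -0.79. Of them, 4 were called lower, beside 0.582% of all genes. Mthfd2, a mitochondrial enzyme of one-carbon metabolism (chromosome 6, 83305691 to 83325908), had 123, 107 and 103 CPM against 33.0, 39.6 and 47.3 CPM (-1.47, SE 0.22, adjusted p = 0.0140, edgeR). Impdh2, the rate-limiting enzyme of guanine nucleotide synthesis, had 19.9, 26.3 and 19.3 CPM against 8.07, 8.30 and 11.3 CPM (-1.25, SE 0.24). Srm, spermidine synthase, had 204, 206 and 209 CPM against 66.4, 68.1 and 144 CPM (-1.15, SE 0.29), so clone 3 lay between the other MT194 clones and the clones labelled WT. Against WT(N48) the list median was -0.45, and Mthfd2 (-1.12) was nearer its value here than Impdh2 (-0.18) and Srm (-0.23).

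Proliferation genes lay mostly below 0, with few calls. Of 39 DNA replication genes, 36 lay below 0 (median -0.54) and 1 was called lower, beside 0.582% of all genes. Of 30 mitosis genes, 28 lay below 0 (median -0.49) and none was called, with 16 at an unadjusted p under 0.05 and none called by DESeq2. Top2a, which untangles replicated chromosomes, had 742, 910 and 762 CPM in the clones labelled WT and 470, 702 and 479 CPM in MT194 (-0.55, SE 0.22, adjusted p = 0.172, edgeR), without overlap. The medians of the DNA replication and mitosis lists against WT(N48) were -0.28 and -0.38.

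**Figure D3:**
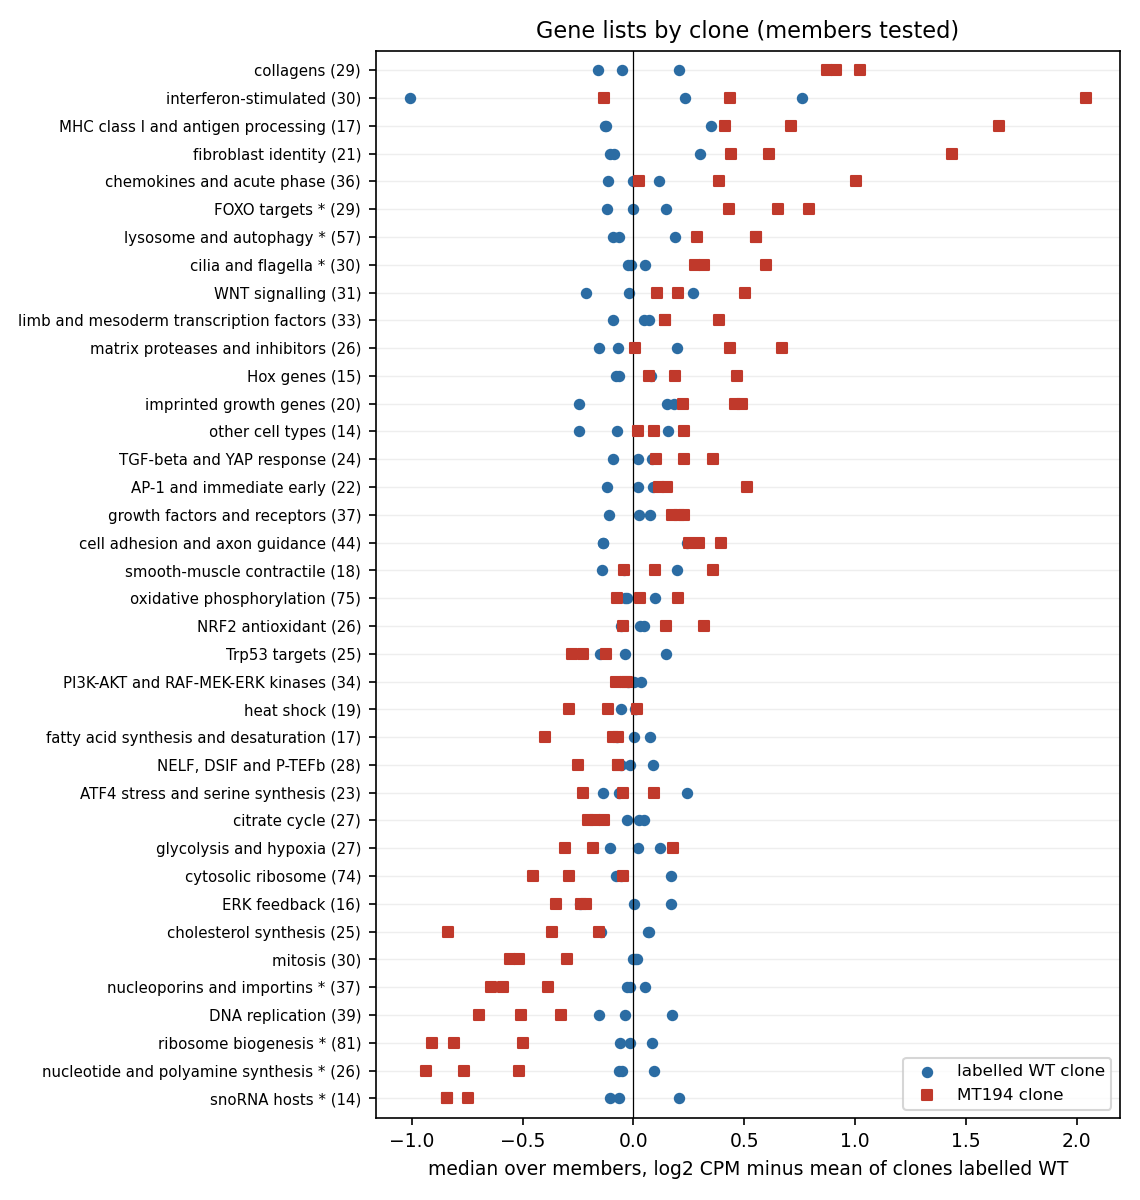
Each gene list's median over its tested members (number in brackets) of log2 CPM minus the mean of the clones labelled WT, 1 point a clone, for 3 clones labelled WT (blue circles) and 3 MT194 clones (red squares). Lists marked with a star were written after the calls were seen. Ribosome biogenesis (-0.91, -0.81 and -0.50) and FOXO targets (0.79, 0.65 and 0.43) keep the MT194 clones on 1 side of 0, whereas the interferon list (0.44, 2.04 and -0.13) does not.

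Genes known as FOXO targets are turned on by forkhead factors when growth factor signalling is low. Of 29 tested, 7 were called higher and none lower, beside 0.885% and 0.582% of all genes. This list was written after the calls were seen. Of the 29, 28 lay above 0, beside 52.5% of all genes, and the median was 0.58. Pik3ip1, an inhibitor of PI3K (chromosome 11, 3330401 to 3342971), had 10.9, 11.7 and 12.7 CPM in the clones labelled WT and 42.9, 49.5 and 33.9 CPM in MT194 (1.84, SE 0.30, adjusted p = 0.0156, edgeR). Cdkn2b, the CDK4 and CDK6 inhibitor p15, had 20.7, 15.4 and 21.5 CPM against 61.8, 66.2 and 147 CPM (2.26, SE 0.54). Klhl24, an adaptor of a ubiquitin ligase, had 26.2, 21.3 and 32.5 CPM against 105, 89.4 and 53.7 CPM (1.63, SE 0.34). In these 3 genes every MT194 clone was above every clone labelled WT. The median of the list against WT(N48) was 0.45. The log2 fold change against WT(N48) was 0.94 for Pik3ip1, 0.73 for Cdkn2b and 0.32 for Klhl24, with adjusted p of 0.0697, 0.395 and 0.574 (edgeR).

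The RNA levels of PI3K-AKT and RAF-MEK-ERK kinase genes differed little, and they do not measure kinase activity. The study reported that MT194 rescued phosphorylation of such signalling proteins in cells without endogenous NELFB. Of 34 kinase genes tested, none was called, 1 had an unadjusted p under 0.05 and DESeq2 called none. The median was -0.09 (from -0.09 to -0.06 as each clone was left out). ERK feedback genes, among them the Sprouty and dual-specificity phosphatase families, had a median of -0.29 over 16 genes. None was called, 1 had an unadjusted p under 0.05 and DESeq2 called 1 lower. Against WT(N48) the median of these genes was -0.87. Oxidative phosphorylation (75 genes, median 0.05) and the citrate cycle (27 genes, median -0.14) had no calls, with 12 and 5 genes at an unadjusted p under 0.05 and none called by DESeq2. Atp5b, the catalytic subunit of the ATP synthase, had 1293, 1317 and 1425 CPM against 1099, 1447 and 1234 CPM.

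Lysosomal and autophagy genes were mostly higher, with 49 of 57 above 0 (median 0.50). Of the 57, 4 were called higher, beside 0.885% of all genes. Psap, prosaposin, the precursor of lysosomal lipid-degrading cofactors (chromosome 10, 60277627 to 60302597), had 475, 430 and 598 CPM against 1015, 1863 and 765 CPM (1.28, SE 0.28, adjusted p = 0.0415, edgeR), and MT194 clone 2 was the highest. Ctsa, the protective protein cathepsin A, had 117, 117 and 145 CPM against 293, 265 and 221 CPM (1.04, SE 0.23). Map1lc3b, the LC3 protein of autophagosomes, had 101, 83.5 and 141 CPM against 261, 227 and 225 CPM (1.13, SE 0.28). Lamp1, a lysosomal membrane glycoprotein and the member of highest CPM, had 994, 1373 and 1512 CPM against 1871, 1499 and 1851 CPM, and the groups overlapped (0.43, SE 0.30). The list had a median of 0.37 against WT(N48), where Psap was at 0.31 and Ctsa at 0.55 (not called) and Map1lc3b at 1.42.

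Timp3, Plat and Mmp11, of the matrix protease and inhibitor list, were called higher. So were Ltbp2, of the TGF-beta and YAP list, and Wisp2, which is on no list. Timp3, a matrix-bound inhibitor of metalloproteinases (chromosome 10, 86300372 to 86349506), had 164, 161 and 221 CPM against 650, 369 and 1490 CPM (2.20, SE 0.53, adjusted p = 0.0487, edgeR), and the MT194 clones spread widely with clone 3 the highest. Ltbp2, a binding protein of elastic fibres, had 217, 274 and 167 CPM against 674, 1057 and 441 CPM (1.72, SE 0.42). Plat, tissue plasminogen activator, had 287, 283 and 254 CPM against 504, 552 and 618 CPM (1.02, SE 0.24), and Mmp11, stromelysin 3, had 26.3, 29.7 and 26.6 CPM against 65.1, 74.6 and 42.8 CPM (1.15, SE 0.21). Wisp2, a secreted CCN family protein, had 42.5, 14.5 and 16.7 CPM against 141, 250 and 190 CPM (2.98, SE 0.55, adjusted p = 0.0252, edgeR). Of 29 genes tested on the collagen list, 26 lay above 0 with the highest median of all lists, 0.97. None on the list was called (10 at an unadjusted p under 0.05, 5 called higher by DESeq2). Col9a3 and Col20a1, collagen genes that the list leaves out, were called higher, though not against WT(N48). Col1a1 had 3143, 1896 and 1491 CPM against 2435, 5619 and 2462 CPM and overlapped. With WT(N48) as the comparator Timp3 was at 0.81, Wisp2 at 1.36 and Mmp11 at 0.30 (not called), Ltbp2 at 1.65 and Plat at 2.00. Against WT(N48) the collagen median was 0.20, and it was 1.29 against clone 2 labelled WT alone.

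Some called genes were close to silent in the clones labelled WT. Gas6, the ligand of the TAM receptor kinases, had 4, 1 and 2 reads in them and 441, 35 and 290 reads in MT194 (0.21, 0.04 and 0.10 CPM against 21.6, 1.66 and 14.5 CPM), so its size in clone 2 differed from the other MT194 clones. The uncloned populations, scaled separately, had more Gas6 than any of the 15 clones. It was at 63.6 and 170 CPM in MT194-Cre and 97.2 and 117 CPM in WT-Cre populations (log2 fold change 0.12). Piezo2, a mechanosensitive channel, had 12, 15 and 3 reads against 256, 62 and 166. Rsph9, a radial spoke protein, had 3, 8 and 2 reads against 45, 95 and 44. The WT(N48) clones expressed both genes, Piezo2 at 7.56, 7.59 and 2.35 CPM and Rsph9 at 1.67, 2.65 and 3.08 CPM, and MT194 minus WT(N48) was 0.44 and 0.27 (adjusted p = 0.695 and 0.780, edgeR). Ccdc65, a cilium assembly factor, had 8, 5 and 7 reads in the clones labelled WT and 16, 44 and 33 reads in MT194. Kif19a, a motor that limits cilium length, had 3, 0 and 3 reads against 36, 77 and 23 (a count of 0 allows up to 3 reads). Of 45 motile and primary cilium genes listed, 30 passed the filter on low counts. Of these, 5 were called higher (median 0.49), beside 0.885% of all genes, a count that depends on the filter. Without it the adjusted p (edgeR) was 0.0568 for Kif19a and 0.0688 for Ccdc65, and 0.0151 for Rsph9. In the other direction, Slc35g1, a membrane transporter family member, had 92, 111 and 262 reads in the clones labelled WT and 1, 7 and 11 reads in MT194. The log2 fold changes of Gas6, Ccdc65 and Slc35g1 were 6.72, 2.20 and -4.58. With WT(N48) as the comparator they were 3.61, 0.53 and -1.43 and not called (adjusted p = 0.0641, 0.519 and 0.386, edgeR). Kif19a was called there too (3.76, adjusted p = 0.0444, edgeR).

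The remaining largest changes were in genes of varied function. Tcp11l2 had 5.15, 5.14 and 6.19 CPM against 34.5, 38.7 and 22.1 CPM (2.53, SE 0.34, adjusted p = 0.0140, edgeR). Slco1a6, an organic anion transporter, had 2.22, 1.70 and 4.16 CPM against 21.1, 20.1 and 9.76 CPM (2.66, SE 0.64). Dhrs9, a retinol dehydrogenase family member, had 2.22, 1.74 and 1.73 CPM against 5.82, 22.6 and 4.75 CPM, with most of the difference in MT194 clone 2. The unnamed loci 9430018G01Rik (2.63) and Gm20756 (3.38) were higher too. Rin3, a RAB5 exchange factor, had 20.7, 26.8 and 27.5 CPM against 7.78, 5.69 and 3.00 CPM (-2.19, SE 0.34, adjusted p = 0.0140, edgeR). Il11, a cytokine of the IL-6 family, had 7.83, 16.0 and 7.00 CPM against 1.81, 2.09 and 2.75 CPM (-2.21, SE 0.53), and Mnd1-ps, a pseudogene, was lower too (-2.06). Against WT(N48), Rin3 was at -2.55, whereas Il11 was at 0.56 and Dhrs9 at -0.28, the opposite sign. Slco1a6 was at 4.44 there, and Tcp11l2 (1.06), Gm20756 (0.07) and Mnd1-ps (-1.01) were not called.

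Other genes called were of high CPM or had roles in signalling. Itga3, the laminin receptor integrin alpha 3, had 277, 583 and 310 CPM against 110, 163 and 140 CPM (-1.50, SE 0.27), whereas Itga7, another laminin receptor subunit, was called higher from low levels (0.57, 0.58 and 0.91 CPM against 2.10, 3.99 and 2.95 CPM). Fasn, fatty acid synthase, had 603, 921 and 798 CPM against 380, 386 and 348 CPM (-1.06, SE 0.20, adjusted p = 0.0234, edgeR), and Ybx3, an RNA-binding cold-shock protein, 556, 637 and 653 CPM against 237, 233 and 305 CPM (-1.25, SE 0.27). Fkbp4, a co-chaperone of HSP90, was lower at -1.02, and Ccng1, a Trp53 target, at -1.20. B4galt1, a galactosyltransferase of the Golgi, had 294, 231 and 310 CPM against 712, 507 and 582 CPM (1.11, SE 0.21, adjusted p = 0.0234, edgeR). Of 28 genes of NELF, DSIF, P-TEFb and related elongation factors, Mllt3, a subunit of the super elongation complex, was the 1 called, with 74.9, 90.4 and 83.7 CPM against 176, 146 and 260 CPM (1.23, SE 0.30), and the median of the 28 was -0.12. Fosb, an AP-1 subunit, was higher at 2.11, and Hspa1b, an inducible HSP70 gene with a near-identical neighbour, had 20.7, 15.9 and 26.2 CPM against 57.4, 49.2 and 49.6 CPM (1.32, SE 0.32). Not all of these held with WT(N48) as the comparator. Fasn (-1.08), Ccng1 (-1.14) and B4galt1 (1.20) were called there too, whereas Itga3 (-0.53), Itga7 (0.92), Ybx3 (-0.78), Fkbp4 (-0.23), Mllt3 (0.40), Fosb (0.67) and Hspa1b (0.92) were not.

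**Figure D4:**
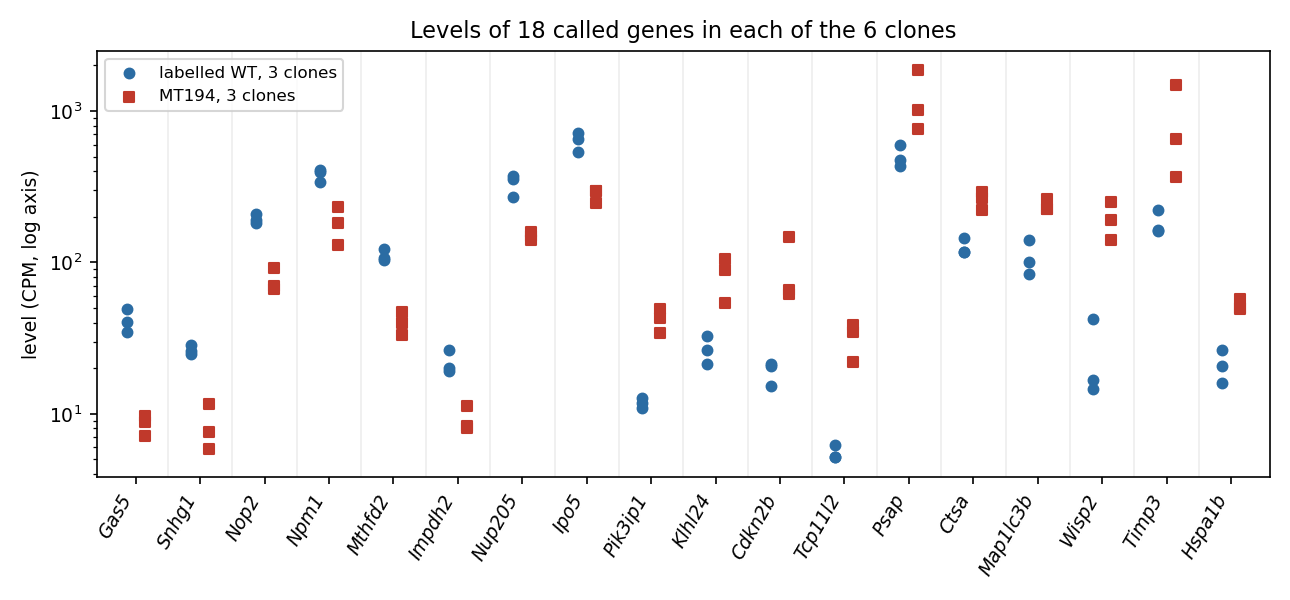
Level (CPM, log axis) of 18 called genes in each of the 3 clones labelled WT (blue circles) and 3 MT194 clones (red squares). The groups do not overlap in any of them, from Gas5 (34.6 to 49.3 against 7.10 to 9.68 CPM) on the left to Hspa1b (15.9 to 26.2 against 49.2 to 57.4 CPM) on the right. This follows largely from how the genes were called.

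Interferon-stimulated genes varied widely between clones of 1 group. The interferon list stood at 0.44, 2.04 and -0.13 in MT194 clones 1, 2 and 3 and at 0.76, -1.01 and 0.23 in the clones labelled WT. Its median of 0.81 over 30 genes became -0.13 at the lowest as 1 clone was left out and 1.36 at the highest, and no member was called (4 at an unadjusted p under 0.05, 1 called higher by DESeq2). The MHC class I list had a median of 0.76 over 17 genes, with none called, 6 at an unadjusted p under 0.05 and 2 called higher by DESeq2, and 7 higher in MT194 without overlap (beside 16.6% of all genes). By clone it stood at 0.71, 1.65 and 0.41 in MT194 and at 0.35, -0.12 and -0.13 in the clones labelled WT, so its medians did not overlap and MT194 clone 2 was the highest. Against WT(N48) both lists were further apart, with medians of 2.77 for interferon-stimulated and 3.08 for MHC class I genes, of which edgeR called 1 and 9 higher.

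Other lists held 1 to 3 calls, beside 0.885% of all genes called higher and 0.582% called lower. Matrix proteases and inhibitors had 3 higher of 26 tested (median 0.29), and the AP-1 (22 genes, median 0.22), TGF-beta and YAP (24, 0.22) and heat shock lists (19, -0.11) 1 higher each, Fosb, Ltbp2 and Hspa1b. Chemokines and acute phase (36 genes, 0.62), Trp53 targets (25, -0.04), fatty acid synthesis (17, -0.11) and ATF4 stress and serine synthesis (23, -0.12) had 1 lower each, Il11, Ccng1, Fasn and Mthfd2. Cell adhesion and axon guidance (44 genes, 0.19) had Itga7 higher and Itga3 lower.

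Several further lists had no call. Glycolysis and hypoxia had a median of -0.16 over 27 genes (11 at an unadjusted p under 0.05, DESeq2 called 3 higher and 1 lower), and NRF2 antioxidant genes 0.02 over 26 (3, and none by DESeq2). Growth factors and receptors had 0.21 over 37 (4, and 1 lower by DESeq2), smooth-muscle contractile genes 0.13 over 18 (1, and 1 higher) and markers of other cell types 0.25 over the 14 tested (1, and 1 higher). Imprinted growth genes had 0.27 over 20 (3, and 2 higher), WNT signalling 0.46 over 31 (5, and 2 higher), limb and mesoderm transcription factors 0.38 over 33 (2, and none) and Hox genes 0.28 over 15 (0, and none). None of these was called by edgeR. Against WT(N48) the median had the opposite sign for WNT signalling (-0.26), imprinted (-0.62), smooth-muscle (-0.45), growth factor (-0.23) and limb (-0.05) lists. So had AP-1 (-0.41), TGF-beta and YAP (-0.48), cell adhesion (-0.27), glycolysis (0.01) and the citrate cycle (0.04).

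The same constructs were also sequenced as populations on day 7 after Ad-Cre, 2 of MT194-Cre and 2 of WT-Cre, which share no library with the clones. There 121 of 13805 genes were called, or 0.876% (53 higher, 0.384%, and 68 lower, 0.493%). With the experiment number as a block, which pairs the populations, 449 were called, 273 higher and 176 lower. DESeq2 called 126 higher and 116 lower, so which direction held more calls depended on the fit. Nelfb was 103.8 and 118.5 CPM in MT194-Cre and 75.9 and 60.5 CPM in WT-Cre populations. Of the 117 genes called higher in MT194 clones, 116 were tested in the populations and 77 had the same sign (66.4%, beside 52.4% of all genes), and 1, Hspa1b, was called there (1.05, adjusted p = 0.00558, edgeR), or 7 with the block and 5 with DESeq2. Of the 77 called lower, 39 had the same sign (50.6%, beside 47.6%) and none was called (the block and DESeq2 each called 1 of them lower, and 13 had an unadjusted p under 0.05). Their median was -1.18 in the clones and -0.00 in the populations, and that of the genes called higher 1.49 and 0.15.

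By list, ribosome biogenesis was at -0.75 in the clones and 0.12 in the populations, nucleotide synthesis at -0.79 and -0.00, FOXO targets at 0.58 and -0.03, and lysosome and autophagy at 0.50 and 0.10. Mitosis was at -0.49 and -0.35, ribosomal proteins at -0.28 and -0.29 and DNA replication at -0.54 and -0.18, the same sign in both. ERK feedback was at -0.29 in the clones and 0.53 in the populations, where 0 of its 16 genes lay below 0. The difference between clones and populations was not tested. Cholesterol synthesis held the most calls of any list in the populations, where 12 of 25 genes were called lower (median -1.37), against 0 here (median -0.40, 7 at an unadjusted p under 0.05, 1 called lower by DESeq2). With the WT(N48) clones as the comparator, however, 18 of the 25 were called lower in the MT194 clones, with a median of -1.60. Gas5 was at -0.23 in the populations, Pik3ip1 at -0.03 and Psap at 0.19, whereas Timp3 was at 1.69 and Wisp2 at 1.12. Neither of these was called by edgeR without the block (adjusted p = 0.105 and 0.203), but both were with the block (0.000352 and 0.00668) and by DESeq2 (0.0056 and 0.0456).

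**Figure D5:**
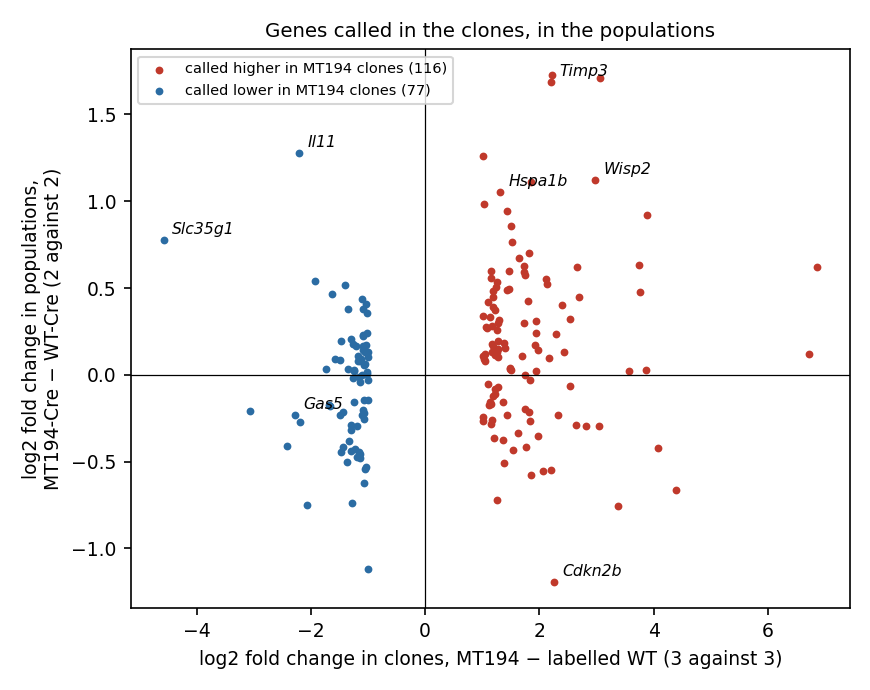
Log2 fold change in the populations (MT194-Cre minus WT-Cre, 2 against 2) against that in the clones (MT194 minus the clones labelled WT, 3 against 3) for the 193 genes called in the clones and tested in the populations. The 77 genes called lower in the clones (blue) spread around 0 in the populations, and 77 of the 116 called higher (red) lie above 0.

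Promoter letters were read for the called genes from RefSeq windows (GRCm38.p6) that run from 250 bases before to 50 bases after each start. The E-box CACGTG, which MYC with MAX and other basic helix-loop-helix factors bind, and TCACGTGA, a longer form that contains it and is known from lysosomal genes, were searched after the calls had been seen. Both read the same on either strand. A window was matched for 88 of the 117 genes called higher, 61 of the 77 called lower and 9970 of all 13223. CACGTG was in windows of 20 of the 88 (22.7%), 5 of the 61 (8.20%) and 11.7% of all genes matched, and TCACGTGA in 7 of the 88 (7.95%), 0 of the 61 and 2.19% of all.

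Printed as examples are the 150 bases before the start of Nop2, called lower, and of Crebrf, a gene called higher (13.4, 15.4 and 21.6 CPM against 49.4, 61.4 and 29.6 CPM), whose stretches overlap no annotated exon. Crebrf, a regulator of the stress factor CREB3, was chosen for this after its values were seen. Only stretches that hold CACGTG were printed. Nop2 is among the 8.20% of matched genes called lower with CACGTG, beside 11.7% of all genes matched, so it does not stand for that group. Against WT(N48) Crebrf was at -0.05 and Nop2 at -0.88, and in the populations both were at 0.04, with neither gene called. Both are on the plus strand of GRCm38.p6, at chr6:125131733-125131882 and chr17:26715500-26715649, and capitals mark CACGTG or TCACGTGA.
Nop2: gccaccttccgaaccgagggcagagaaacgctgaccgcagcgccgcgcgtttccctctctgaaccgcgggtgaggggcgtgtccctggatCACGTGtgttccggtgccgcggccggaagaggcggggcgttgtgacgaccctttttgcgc
Crebrf: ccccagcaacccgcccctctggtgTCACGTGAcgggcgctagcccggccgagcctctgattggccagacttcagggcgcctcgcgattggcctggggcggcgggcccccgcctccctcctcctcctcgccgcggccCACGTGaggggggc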

How the data were processed

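Per the labels and the study's methods, the authors made stranded poly(A) libraries, aligned reads to mm10 with Bowtie2, filtered them with SAMtools and used HTSeq for gene counts. The deposited values are raw counts, and the strand setting of the counting is not given in the sources used here. Bowtie2 does not split reads at exon junctions, which lowers counts of genes with short exons.

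Lines naming no gene (9.48 to 11.3% without a feature, 1.08 to 1.12% ambiguous) were left out. Counts of the 15 clones were fitted in edgeR 4.0.16 (R 4.3.3, limma 3.58.1) with TMM, filterByExpr and the quasi-likelihood test, with 1 mean a group and Benjamini-Hochberg adjustment. The 20 populations were fitted alike, and DESeq2 1.42.0, the authors' tool, was an alternative, with other filters, scalings, comparators and samples. Samples were grouped by title. The experiment number pairs the populations (45 of 45 group pairs correlated over 0.1, from 0.420 to 0.730). On simulated counts edgeR recovered 76% of 200 genes changed at a log2 fold change of 2 in this comparison (13093 genes) with 3 false calls, and DESeq2 87.5% with 29. Those counts were drawn independently with the fitted spread and no outlying clone, whereas the called genes had medians of 1.50 and -1.18. The simulation therefore does not measure how many of the calls here are false.

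Named genes were the NELF subunits, the 8 largest changes a direction among called, non-overlapping genes averaging 50 counts or more, the 5 of highest CPM a direction, and up to 3 called genes and the gene of highest CPM in each list. Genes, 31 lists and comparisons were chosen with earlier results of these data known, and 7 more lists, their examples and the motifs after the calls were seen. Lists were not tested. Some genes that the rule names are not reported here.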

Additional observations from a re-analysis of the deposited data

Results flagged for a closer look

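In 9 of 53 named genes called in the clones (17.0%), clones and populations differed in opposite directions. In these genes MT194 did not overlap the clones labelled WT, nor MT194-Cre the WT-Cre populations. The same held for 17.2% of all 4388 genes without overlap in the clones. The difference between clones and populations was not tested. In the populations edgeR without the block called none of the 9, whereas Cdkn2b was called with the block (adjusted p = 3.21e-05) and by DESeq2 (adjusted p = 0.0117). Among genes called higher in the MT194 clones, the log2 fold change in the populations was -0.55 for Ccdc65, -1.2 for Cdkn2b, -0.755 for Gm20756, -0.662 for Kif19a, -0.334 for Klhl24 and -0.0631 for Tcp11l2. Among genes called lower in the clones it was 0.519 for Heatr1, 1.28 for Il11 and 0.778 for Slc35g1.

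Cdkn2b had 20.7, 15.4 and 21.5 CPM in the clones labelled WT and 61.8, 66.2 and 146.7 CPM in MT194 clones, but 29.9 and 21.8 CPM in WT-Cre and 11.3 and 11.3 CPM in MT194-Cre populations.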

How the results depend on the processing

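The 117 and 77 calls together became 485 with DESeq2, 692 with DESeq2 and 311 with edgeR on the 6 clones alone, 119 without a filter on low counts, 384 at a log2 fold change over 0.5, 429 with WT(N48) clones and 1 with clone 2 labelled WT as the comparator, and from 0 to 230 as each clone was left out. Clone numbers do not pair the clones (same-number correlations 0.0077, 0.082 and 0.060), and a replicate block left 41 calls. Nelfb was past the threshold with DESeq2 on 15 clones (2.04), not on the 6 alone (2.03, adjusted p = 0.149), and ran from 1.54 to 3.82 as each clone was left out. With clone 2 labelled WT as the only comparator, spread came from the other groups. The 121 population calls became 242 with DESeq2, 449 with the replicate block, 191 at a log2 fold change over 0.5, 0 with edgeR on the 4 populations alone (1106 at an unadjusted p under 0.05), and 17 to 69 as each population was left out. Against WT(N48), signs turned for Col1a1 (-0.18), Crebrf (-0.050), Dhrs9 (-0.28), Fn1 (-0.30), Il11 (0.56), Nelfcd (0.39), Nelfe (0.20) and Snhg18 (-0.67), and with both WT groups pooled for Nelfcd (0.15), Nelfe (0.053) and Snhg18 (-0.15). As each clone was left out, Nelfa ran from -0.31 to 0.027, Nelfcd from -0.17 to 0.13 and Nelfe from -0.16 to 0.047. The sign turned without clone 2 labelled WT for Nelfcd and Nelfe, and without MT194 clone 2 for Nelfa and Nelfcd. The cause was not tested.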
